A study of Mus musculus with 6 samples.

Results

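Peroxisomes are small single-membrane organelles that hold oxidases producing hydrogen peroxide, catalase to destroy it, and a fatty acid oxidation pathway separate from that of mitochondria. Their proteins are made in the cytosol and brought in by peroxins, the products of the Pex genes, which recognise targeting signals, dock the cargo at the membrane, pull it through and recycle the receptors. In hepatocytes the organelle shortens very long and branched fatty acids, finishes the side chain of bile acids, starts plasmalogen synthesis and breaks down urate, glyoxylate and D-amino acids, and many of its oxidation genes are targets of the nuclear receptor PPAR alpha.

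The 42 genes described here are 13 peroxins and 29 enzymes and membrane transporters, taken from a fixed list of symbols and represented by every probe set to which the array annotation gives that single symbol. They have 80 probe sets among 34945 singly named ones, and stand beside 18193 genes in all. The arrays measured total RNA of fetal mouse liver at E18.5, late in gestation. The 3 null livers (Null_61, Null_1191 and Null_1195) carry 2 loxP-flanked copies of Hnf4 (HNF4LoxP/LoxP), and the 3 control livers (Control_8, Control_1192 and Control_1193) carry 1 flanked and 1 unflanked copy (HNF4LoxP/+). AlfpCre is present in all 6. This transgene drives Cre recombinase from albumin and alpha-fetoprotein control elements, which directs recombination to the hepatocyte lineage, while the livers also contain blood-forming, endothelial and mesenchymal cells.

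Each gene is described by its brightest probe set unless another is named, and intensities are linear values as deposited. A log2 change is null minus control after values below 0 were set to 0 and 32 was added, which makes the change of dim genes look smaller. A gene was called when limma's adjusted p, computed over all 45037 probe sets, was under 0.05. A fold is taken from the log2 change and is left out where the mean of a group lies below 99.5, the highest array median, because background then makes up much of the signal.

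Among whole-liver features that bear on these genes, Hnf4a itself averaged 2039 ± 649 in nulls and 2767 ± 142 in controls (SD, n = 3 each), with an adjusted p of 0.194 (0.00589 without Null_1195), and 2 of its 4 probe sets were called lower. Markers of hepatocytes summed to between 51618 and 57214 in nulls and between 85029 and 86913 in controls, with 6 of 8 measured genes lower. Those not called were Alb (means 10651 in nulls and 10532 in controls, log2 change 0.02) and Afp (11463 and 11969, -0.06). Both lay near the top of the scale, whose highest value was 12608. The other Afp probe sets lay lower on the scale and were not called either. They ran from 1436880_at (means 534 in nulls and 506 in controls, log2 change 0.13) to 1416645_a_at (8120 and 8233, -0.02). Erythroid markers summed to between 20322 and 20828 in nulls and between 17749 and 19041 in controls, with 0 of 8 called. Macrophage and Kupffer markers summed to between 6214 and 10080 in nulls, against 4350 to 5147 in controls, with 3 of 10 higher. Of 5 sinusoidal endothelial genes 2 were lower, with sums of 1126 to 1330 in nulls and 1625 to 1840 in controls, and of 5 megakaryocyte genes 3 were lower, with sums of 3534 to 4043 in nulls and 4996 to 7010 in controls. No gene was called among 6 neutrophil (sums of 21714 to 27329 in nulls and 23449 to 26387 in controls), 5 stellate and mesenchymal (2853 to 4338 in nulls and 2263 to 3151 in controls) and 4 biliary markers (619 to 775 in nulls and 640 to 722 in controls). Of the 51 marker genes measured, 0 were listed at or below 0 on all arrays. In whole tissue, fewer hepatocytes and less of a transcript per hepatocyte cannot be told apart, and the part of these cell types in the results below was not tested. Control_8 and Null_61 stand apart from the other 4 arrays in the control probe set for the 5′ end of 18S ribosomal RNA, at 33.5 in Null_61 and 42.1 in Control_8 against 449 to 616 elsewhere.

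Peroxisomal transcripts were lower in the null livers across most of the list, and the fall was uneven. Of 42 genes 23 fell and 0 rose, or 54.8%, where 7.85% of all genes fell and 1.56% rose. The median log2 change was -0.59, beside 0.01 over all genes. A log2 change of -1 or lower with a call was seen in 14 members, against 3.75% of all genes, and one of -2 or lower in 10, against 1.36%. The 3 nulls lay below the 3 controls in 31 members and above them in 2, where the shares over all genes were 17.9% and 13.2%. At an unadjusted p under 0.05, 31 members were lower, where 15.2% of all genes were. Of the 35 members brighter than the median probe set 21 fell, beside 10.1% of all genes as bright.

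All 10 members with a called change of -2 or lower were enzymes or transporters. Of these 29 genes 18 fell, at log2 changes between -4.73 and 0.39 and a median of -0.96. By the same threshold 5 of the 13 peroxins fell, at changes between -1.02 and 0.02 and a median of -0.49. The 3 nulls lay below the 3 controls in 21 of the 29 and in 10 of the 13, where the share over all genes was 17.9%. At an unadjusted p under 0.05, 21 enzymes and transporters and 10 peroxins were lower, where 15.2% of all genes were. Taken array by array as the difference from the average control, enzymes and transporters had medians of -0.99 (Null_61), -1.01 (Null_1191) and -0.86 (Null_1195). Peroxins had -0.50, -0.52 and -0.50 in that order, so their median lay nearer to the controls on each null array. For the arrays with low title numbers, Null_61 minus Control_8 gave a median of -1.08 for enzymes and -0.48 for peroxins. The other 4 arrays gave -0.98 and -0.49. The difference between the 2 sets is given as a description with no test.

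**Figure D1:**
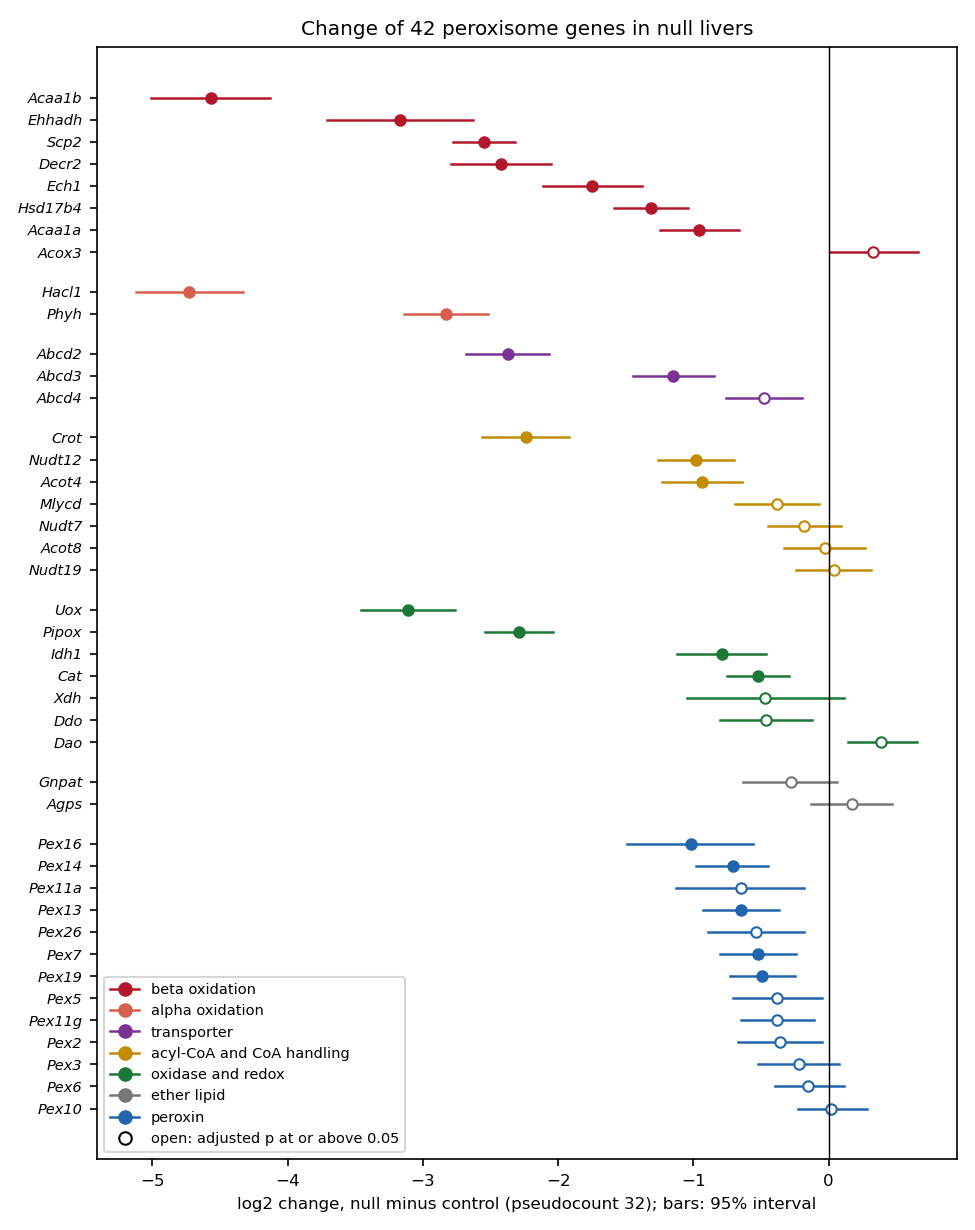
Log2 change of each of the 42 genes, null minus control, by role, as a point with its 95% interval, and open where the adjusted p was 0.05 or more. Changes run from -4.73 for Hacl1 to 0.39 for Dao, and all 13 peroxins lie between -1.02 and 0.02.

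**Figure D2:**
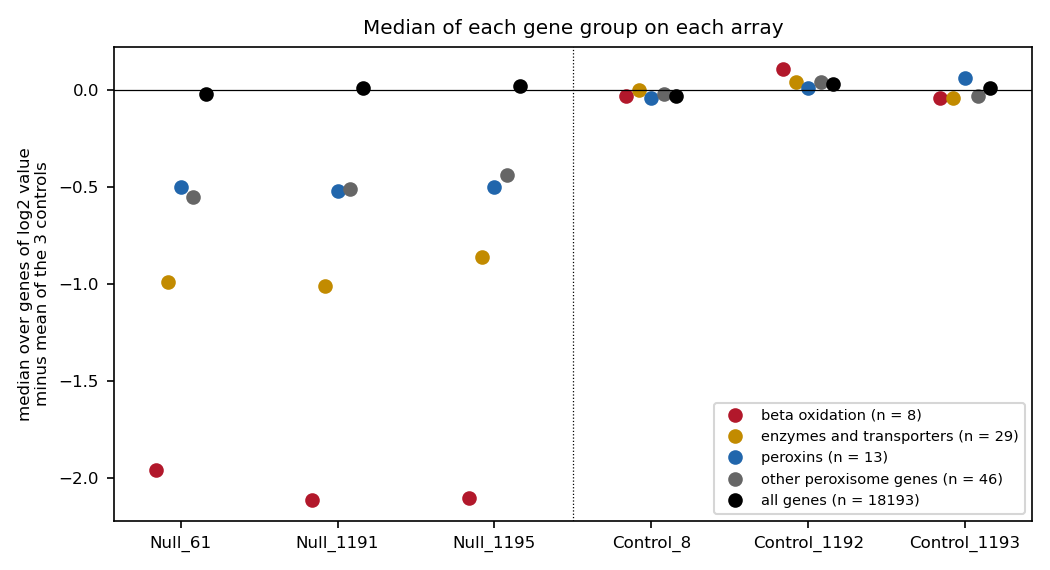
Median over genes of the log2 value on each array minus the mean of the 3 controls, for 5 gene sets. On the 3 null arrays the beta oxidation genes lie at -1.96 to -2.11, the peroxins at -0.50 to -0.52 and all genes at -0.02 to 0.02.

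Peroxisomal beta oxidation was lower at 7 of its 8 genes, with a median log2 change of -2.08. Acaa1b, a 3-ketoacyl-CoA thiolase that performs the last step of each cycle, read 4.97, 24.5 and 18.6 in Null_61, Null_1191 and Null_1195, against 1156, 1275 and 883.5 in Control_8, Control_1192 and Control_1193. Its null signal lay in the lowest part of the scale on all 3 arrays. The log2 change was -4.57 with a standard error of 0.19 (adjusted p = 1.87e-06), and it was -6.25 with a pseudocount of 1 and -3.37 with 100, so the size is set largely by that choice.

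Acaa1a encodes the closely related second thiolase of the mouse. It read 269, 301 and 350 in the nulls and 605, 672.5 and 590 in the controls, a 1.94-fold fall (log2 change -0.96, standard error 0.13, adjusted p = 0.00209). Its other probe set gave -0.97. The groups did not overlap, yet 49.2% of the control signal remained. Both Acaa1a probe sets carry the suffix _x_at, which the manufacturer gives to probes that can bind related transcripts, so signal from Acaa1b in the controls cannot be separated from that of Acaa1a. Another 2 probe sets are annotated to both genes and were not used. The difference between the 2 genes' changes was not tested.

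The 250 bases before the start of these paralogs are shown because the 2 thiolases lie on the same chromosome and had log2 changes of -4.57 and -0.96. They are RefSeq sequences of GRCm38.p6, from chr9:119157094-119157343 on the minus strand for Acaa1b and chr9:119341044-119341293 on the plus strand for Acaa1a, with CG dinucleotides in capitals.
Acaa1b: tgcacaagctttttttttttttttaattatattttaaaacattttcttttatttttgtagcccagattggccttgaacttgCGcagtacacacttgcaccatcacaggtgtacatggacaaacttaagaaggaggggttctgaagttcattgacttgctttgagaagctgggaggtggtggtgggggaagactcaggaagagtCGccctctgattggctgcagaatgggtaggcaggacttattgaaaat
Acaa1a: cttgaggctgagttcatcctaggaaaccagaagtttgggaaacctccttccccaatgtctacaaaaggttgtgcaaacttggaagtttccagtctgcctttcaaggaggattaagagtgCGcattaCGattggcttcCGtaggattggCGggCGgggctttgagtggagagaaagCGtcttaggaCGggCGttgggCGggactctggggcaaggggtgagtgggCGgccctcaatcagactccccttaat
The Acaa1b stretch holds 2 CG dinucleotides and 41.6% G and C, and that of Acaa1a holds 10 and 53.6%. Over the same 250 bases, protein-coding genes had a median of 10. Members with a log2 change of -2 or lower had a median of 10 CG dinucleotides (9 genes, from 2 to 25). The other members, peroxins among them, had one of 13.5 (26 genes, from 3 to 34.5), so the counts of the groups overlapped. Acaa1b had the lowest count of the members with a window, and a link between CG content and the size of a fall was not tested.

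Ehhadh, the bifunctional enzyme that hydrates and then dehydrogenates the L-hydroxyacyl chain and a classic PPAR alpha target, read 82.2, 58.6 and 41.5 in the nulls and 1008, 884 and 553 in the controls. The highest null value was far under the lowest control value, although the controls varied (815 ± 235, SD, n = 3). Its log2 change was -3.17 (standard error 0.24, adjusted p = 5.88e-05). Hsd17b4 encodes the D-specific counterpart, which handles branched chains and bile acid intermediates. It read 329, 286 and 345 in the nulls and 853.5, 906 and 771 in the controls, a 2.49-fold fall (log2 change -1.31, adjusted p = 0.000219). The second probe set of Hsd17b4 gave -1.40.

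Scp2, whose longer product is the thiolase for branched chains and whose shorter product is sterol carrier protein 2, read 776, 664 and 667 in the nulls, against 4156, 4355 and 4275 in the controls, a 5.86-fold fall with little spread in either group (log2 change -2.55, standard error 0.10, adjusted p = 1.32e-06). All 4 of its probe sets were called, with log2 changes from -2.55 to -1.10. Decr2, a peroxisomal reductase needed for unsaturated chains, read 146, 97.7 and 166 in the nulls and 844, 871 and 859 in the controls, a 5.36-fold fall. Ech1, an isomerase of dienoyl chains found in peroxisomes and mitochondria, read 853, 849 and 618 in the nulls and 2238, 3034 and 2713 in the controls, 3.35-fold lower.

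Acox3, an acyl-CoA oxidase for branched chains, stood outside this pattern. It read 78.1, 108 and 83.2 in the nulls and 58.7, 59.0 and 75.8 in the controls. The nulls were all above the controls, but the signal was near background and the log2 change of 0.33 did not pass the test (adjusted p = 0.227), nor did the 0.05 of its other probe set.

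Alpha oxidation, which removes 1 carbon from chains such as phytanic acid that carry a methyl group in the way of beta oxidation, fell at both of its measured steps. Phyh, the phytanoyl-CoA hydroxylase, read 235, 252 and 312 in the nulls and 1850, 2186 and 2224 in the controls, a 7.12-fold fall (log2 change -2.83, standard error 0.14, adjusted p = 3.83e-06). Hacl1, the lyase that cleaves the hydroxylated product, had the lowest log2 change of the 42 genes. It read 21.4, 31.2 and 9.33 in the nulls and 1413, 1464 and 1168 in the controls, that is, bright in each control and near the bottom of the scale in each null (log2 change -4.73, standard error 0.17, adjusted p = 9.03e-07). With a pseudocount of 1 or 100 the change was -6.10 or -3.58.

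**Figure D3:**
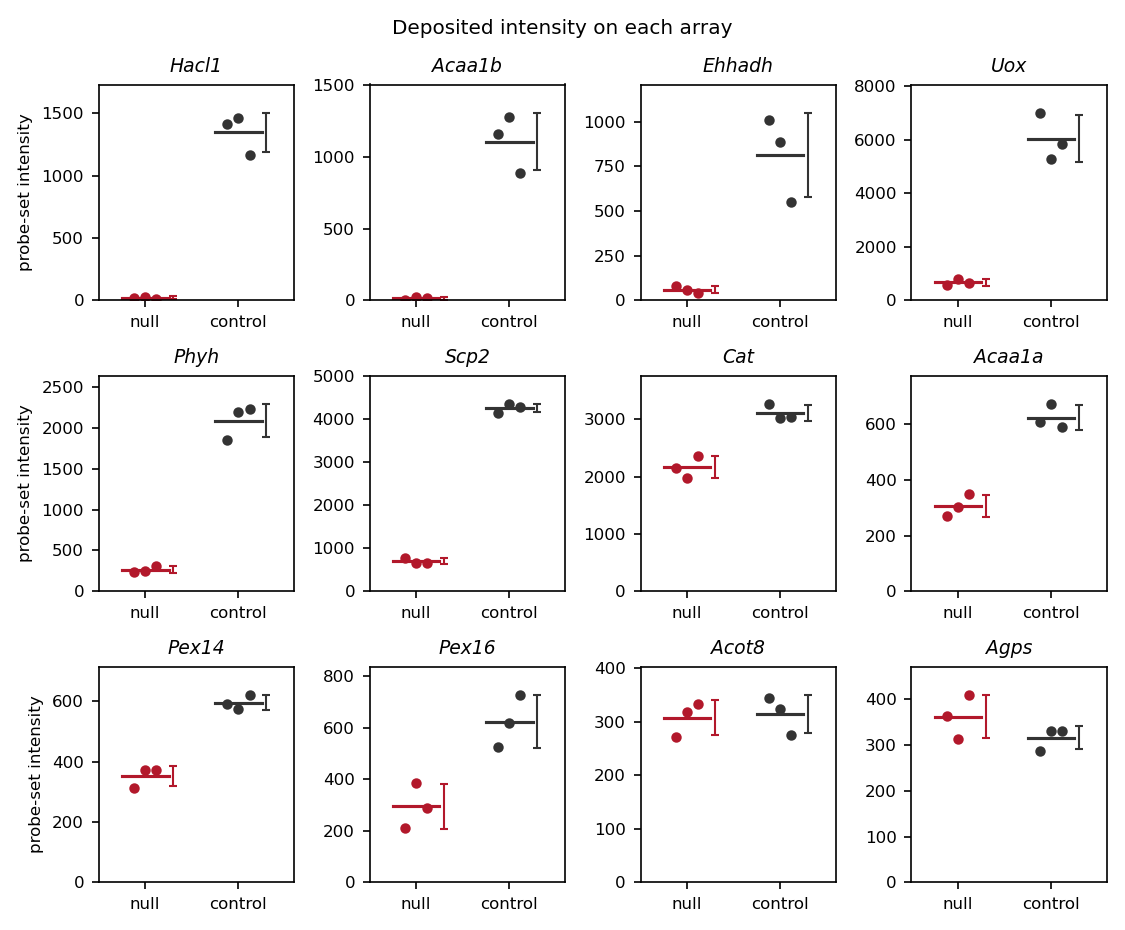
Deposited probe-set intensity of 12 members on each array, nulls left and controls right, with the group mean as a line and the SD as an error bar (n = 3). Null and control arrays do not overlap in 10 of the panels, from Hacl1 (means 20.6 and 1348) to Pex16, and overlap for Acot8 and Agps.

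Among the ATP-binding cassette transporters of the D family, Abcd2 and Abcd3 import acyl-CoAs through the peroxisomal membrane. Abcd2, a transporter for very long and polyunsaturated chains, read 120.5, 115 and 93.0 in the nulls and 663, 786.5 and 654 in the controls. It fell 5.18-fold (log2 change -2.37, adjusted p = 1.01e-05), all 4 probe sets were called, and the mean of its probe sets gave -1.71. Abcd3, which imports branched chains and bile acid intermediates, read 341, 379 and 467 in the nulls and 912, 937.5 and 876 in the controls, 2.21-fold lower (adjusted p = 0.000872). Its dim second probe set was not called at -0.37, and the mean of both gave -0.76, still called. Abcd4, now known as a lysosomal transporter for cobalamin, read 64.1, 68.8 and 74.9 in the nulls and 125, 100 and 103 in the controls (log2 change -0.48, adjusted p = 0.056). Its groups did not overlap but it was not called, and its other probe set gave 0.09. Abcd4 was called with the run of title numbers as a block (0.0313) and with array weights (0.0387).

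The set of genes for handling acyl groups and coenzyme A, in which the nucleotide hydrolase Nudt12 was also placed, was split, with 3 of 7 lower. Crot, the octanoyltransferase that passes shortened chains to carnitine for export, read 146, 124 and 121 in the nulls and 681.5, 872.5 and 659 in the controls, a 4.72-fold fall (log2 change -2.24, adjusted p = 2.09e-05), and its other probe set was called at -1.50. Acot4, a thioesterase acting on dicarboxylic acyl-CoAs, averaged 27.9 ± 4.02 in nulls and 82.7 ± 9.09 in controls (SD, n = 3 each) at a log2 change of -0.94, and its second probe set was called at -0.76. Nudt12, a hydrolase of NADH and related nucleotides, averaged 36.3 ± 5.73 in nulls and 103 ± 4.19 in controls, at -0.98.

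The other 4 genes of this set were not called. Acot8, a thioesterase of broad range that also acts on bile acid CoA esters, read 272, 317 and 333 in the nulls and 345, 324 and 275.5 in the controls. Its groups overlapped, and the 95% interval of its log2 change of -0.03 ran from -0.33 to 0.27. Nudt19, a coenzyme A diphosphatase, had an interval from -0.24 to 0.31 around 0.04. Mlycd, malonyl-CoA decarboxylase, had 145, 187 and 201 in the nulls and 232, 237 and 247.5 in the controls, without overlap but with an adjusted p of 0.151. Nudt7, another coenzyme A diphosphatase, had 1 of 4 probe sets called, at -0.55, and its brightest gave -0.18.

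Among oxidases and redox enzymes 4 of 7 fell. Uox, urate oxidase, which mice keep in the crystalline core of liver peroxisomes, read 564.5, 815 and 640 in the nulls, against 7002, 5280 and 5824 in the controls. Every control was several times brighter than every null, and the fall was 8.63-fold, the largest fold that could be given for a member (log2 change -3.11, standard error 0.16, adjusted p = 4.98e-06). Pipox, the oxidase of sarcosine and L-pipecolate, read 82.9, 76.0 and 80.4 in the nulls and 493, 536 and 514 in the controls (log2 change -2.29, adjusted p = 3.91e-06). Neither gene's groups came near to overlapping.

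Cat, the catalase gene and a marker enzyme of the organelle, read 2156, 1976 and 2363 in the nulls and 3275, 3025 and 3040 in the controls, a 1.43-fold fall (log2 change -0.52, standard error 0.10, adjusted p = 0.0153). Its second probe set fell 1.76-fold (adjusted p = 0.00277). The call of the brighter one was lost without Control_8, Control_1192, Control_1193 or Null_1191 (adjusted p = 0.0842, 0.0646, 0.0641 and 0.0728) and with quantile normalization (0.0897). Catalase is also abundant in red cells, whose marker sums are given above, and their part in its signal was not tested. Idh1, the cytosolic and peroxisomal isocitrate dehydrogenase that supplies NADPH, read 698, 694 and 941 in the nulls and 1505, 1245 and 1331 in the controls, 1.73-fold lower (adjusted p = 0.0115, and 0.0569, 0.0501 and 0.0576 without Control_8, Control_1193 or Null_1191).

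The other 3 oxidases were not called. Xdh, xanthine dehydrogenase, which makes urate mainly in the cytosol, read 99.4, 36.6 and 69.6 in the nulls and 138, 103 and 73.0 in the controls, with overlap (log2 change -0.47, adjusted p = 0.338). Ddo, D-aspartate oxidase, read 93.1, 131 and 95.7 in the nulls and 180, 159 and 135 in the controls (adjusted p = 0.121), and 1 of its 3 other probe sets was called at -1.40 with all nulls listed below 0. Dao, D-amino acid oxidase, was the member with the highest log2 change, at 84.3, 85.8 and 82.3 in the nulls and 56.0, 56.0 and 57.5 in the controls. Its nulls lay above its controls with little spread, but all 6 values were under the array medians, and the log2 change of 0.39 was not called (adjusted p = 0.078). With array weights it was called (0.0432), and likewise when probe sets were averaged per gene, where fewer features were tested (0.0242).

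Ether lipid synthesis begins in peroxisomes with Gnpat, which acylates dihydroxyacetone phosphate, and Agps, which exchanges the acyl for an alkyl chain. Neither gene was called. Gnpat read 328, 226 and 262 in the nulls and 362, 349 and 294.5 in the controls (log2 change -0.28, interval -0.63 to 0.06). Agps read 363, 313.5 and 409 in the nulls and 287, 330.5 and 331 in the controls (0.17, interval -0.13 to 0.47). In both the groups overlapped. Of the other 2 Agps probe sets, 1 was called lower at -0.50 and the other was not called at 0.33, so the probe sets do not give a single direction.

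Of the 13 peroxins 12 had a log2 change below 0, and 1 had a called change of -1 or lower. Among import receptors and docking proteins, Pex14, the docking protein of the import channel, read 313, 371 and 373 in the nulls and 590, 574 and 622 in the controls, a 1.64-fold fall (log2 change -0.71, standard error 0.12, adjusted p = 0.00663). Pex13, its partner in docking, read 223, 216 and 237 in the nulls and 324, 395 and 399 in the controls, 1.57-fold lower (adjusted p = 0.0141). The dim second probe set of Pex13 was not called, at -0.17 (adjusted p = 0.644). Pex7, the receptor for the amino-terminal targeting signal of thiolases, Phyh and Agps, read 259, 229 and 269.5 in the nulls and 368, 415 and 348 in the controls, 1.44-fold lower (adjusted p = 0.037). Pex5, the receptor for the more common carboxy-terminal signal, read 184, 129 and 129 in the nulls and 207, 190 and 197 in the controls, without overlap but with no call (log2 change -0.38, adjusted p = 0.181). Pex5 was called without Null_61 (0.0264) and with array weights (0.0416).

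Proteins that build the peroxisomal membrane showed calls in Pex16 and Pex19. Pex16, which recruits membrane proteins early in biogenesis, read 211, 387 and 289 in the nulls and 526, 617 and 729 in the controls (2.03-fold lower, log2 change -1.02, adjusted p = 0.0182). Its other probe set was not called and pointed upward, at 172, 180 and 150 in the nulls and 116, 123 and 131 in the controls (0.36). The mean of both was -0.33 and not called (adjusted p = 0.173). Pex19, the chaperone and receptor of membrane proteins, read 201, 207 and 199.5 in the nulls and 299, 298 and 292 in the controls, a 1.40-fold fall with narrow groups (adjusted p = 0.0274). The other probe sets of Pex19 were not called, at -0.50 and -0.04 (adjusted p = 0.134 and 0.94). Pex3, the docking factor for Pex19, had 1 of 2 probe sets called, at -0.62, and its brighter one was not called at -0.22.

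Of the peroxins that recycle receptors or divide the organelle, 0 were called by their brightest probe set. Pex2 and Pex10, RING finger proteins of the ubiquitin ligase complex, had log2 changes of -0.36 and 0.02, and Pex2 was called without Null_61 (0.0487). Pex26, the membrane anchor of the exporting ATPase, read 132, 123 and 131 in the nulls and 217, 153.5 and 240 in the controls (adjusted p = 0.0857, but 0.0426 with the run of title numbers as a block and 0.0358 without Control_1192). Pex11a, a PPAR alpha-inducible division factor, read 90.1, 137 and 163 in the nulls and 166, 234 and 265.5 in the controls (log2 change -0.65, adjusted p = 0.113). Its dimmer probe set was called at -0.77, and the brighter one was called with the run of title numbers as a block (0.00511). Pex11g, a related division factor, was at -0.38 and was called with that block as well (0.045).

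Pex6, an ATPase that pulls import receptors out of the membrane, gave the widest disagreement among peroxin probe sets. Probe set 1424078_s_at read 168, 75.7 and 142 in the nulls and 455.5, 373 and 386 in the controls, a 2.81-fold fall (log2 change -1.49, adjusted p = 0.00359). The brightest, 1438138_a_at, read 441, 493 and 475 in the nulls and 491, 514 and 564 in the controls (-0.15, adjusted p = 0.503), and the other 3 ranged from -0.27 to -0.07. The annotation gives 1424078_s_at and the uncalled 1451226_at the same source sequence.

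With 1 array left out in turn, Pex7 and Pex19 each lost their call in 5 of 6 fits and Pex13 and Pex16 each in 3. The adjusted p went up to 0.161 for Pex7, 0.0817 for Pex13, 0.0835 for Pex16 and 0.115 for Pex19, whereas Pex14 stayed called at 0.043 or less. Leaving out Control_8 gave a count of 3 lower peroxins, Control_1193 gave 1, and Control_1192 gave 2, which were Pex14 and the newly called Pex26. Leaving out Null_61 gave 7, and either of Null_1191 and Null_1195 gave 2. With quantile normalization or a term for embryo sex it was 3, and with the title number run as a block it was 8.

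Across probe sets, 41 of the 80 were called lower and 0 higher, where 5.55% of all probe sets were lower and 1.46% higher. Of the 24 members with several probe sets, 8 had all of them called, 10 had some and 6 had none. At least 1 lower probe set was found for 29 members, 6 of which were not called by their brightest.

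**Figure D4:**
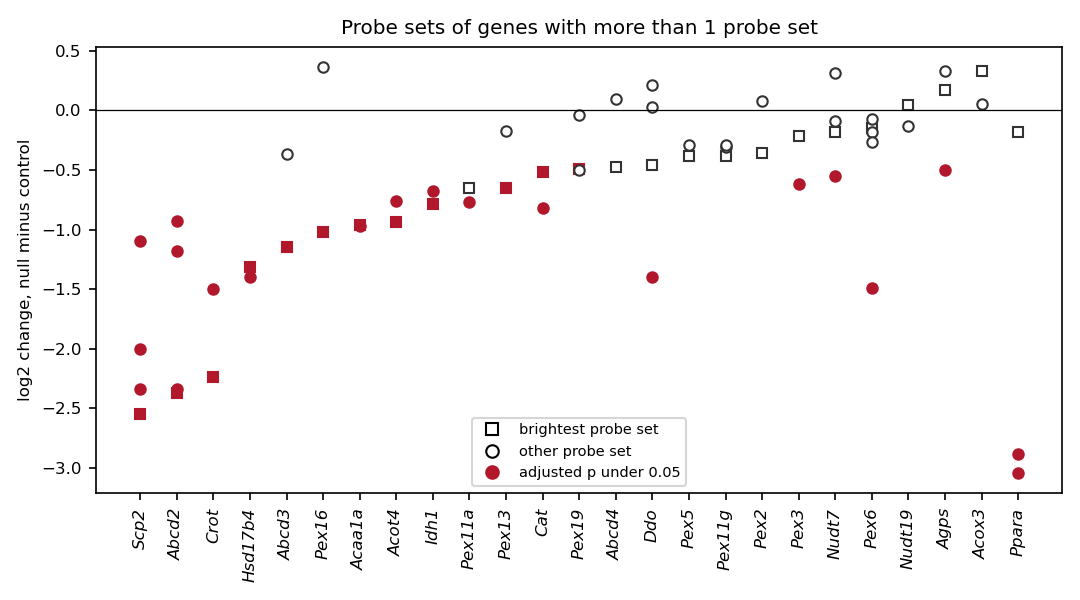
Log2 change, null minus control, of every probe set of the 24 members with more than 1, and of Ppara. Squares mark the brightest probe set and red marks adjusted p under 0.05. Those of Scp2, Abcd2 and Crot are all red, while Pex6, Pex16, Pex19, Ddo, Agps and Ppara are among those split.

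Other genes linked to the organelle, from a list made with earlier results of these data known, were also often lower. Of 46 measured genes 21, or 45.7%, fell and 1 rose, where 7.85% of all genes fell and 1.56% rose. The median log2 change of the 46 was -0.47. Hao2 and Hao1, oxidases of 2-hydroxy acids and glycolate, averaged 39.3 ± 11.7 and 40.3 ± 8.48 in nulls and 1243 ± 139 and 1177 ± 191 in controls (SD, n = 3 each), with log2 changes of -4.17 and -4.06. Ephx2, the soluble epoxide hydrolase, and Agxt, the aminotransferase that removes glyoxylate, changed by -3.54 and -3.68. Acox2, the oxidase of branched chains and bile acid intermediates, averaged 57.9 ± 25.7 in nulls and 1038 ± 81.1 in controls, at -3.61 (adjusted p = 8.4e-06). Slc27a2, a very long chain acyl-CoA synthetase, fell 8.43-fold. Acad11, an acyl-CoA dehydrogenase, fell 7.33-fold. Pxmp2, a channel of the peroxisomal membrane, fell 2.48-fold (adjusted p = 0.000114).

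Probe sets disagreed for 9 of these genes. Pecr, Acot12, Tmem135, Pnpla8, Acot6 and Isoc1 were lower by their brightest probe set with at least 1 other uncalled. Lonp2, the peroxisomal Lon protease, and Tysnd1, a processing protease, were not called by their brightest (-0.45 and -0.02) but had 1 other called lower, at -1.29 and -0.62. With the run of title numbers as a block the brightest of Lonp2 was called (0.0394). Far1 is the last of the 9.

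The division machinery shared with mitochondria was not called. Fis1, Mff and Dnm1l had log2 changes of 0.07, -0.03 and -0.11 with 95% intervals within -0.36 and 0.34. The gene that rose was Far1, which makes the fatty alcohol for ether lipids. It read 238, 263 and 276 in the nulls and 155, 184 and 172 in the controls (log2 change 0.53, adjusted p = 0.0335), but its 4 other probe sets were not called. The call was lost without any single array other than Null_61 (adjusted p from 0.0849 to 0.128), with embryo sex as a term (0.0856) and in the mean of its probe sets (log2 change 0.18).

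PPAR alpha, the receptor that activates many of these oxidation genes, is encoded by Ppara, and its 3 probe sets disagreed. Probe set 1439675_at read 103, 59.3 and 98.2 in the nulls and 979.5, 933 and 877 in the controls (log2 change -3.04, adjusted p = 8.15e-06). Probe set 1449051_at read 44.6, 72.2 and 132 in the nulls and 324, 1220 and 1139 in the controls (-2.88, adjusted p = 0.00631), with Control_8 well below the other controls. The brightest, 1457721_at, read 553, 557.5 and 639 in the nulls and 634, 676 and 682 in the controls (-0.18, adjusted p = 0.392), and the mean of the 3 was called (-2.03, adjusted p = 0.000183). Which part of the transcript each one binds was not analysed here. Rxra, its partner receptor, averaged 290 ± 110 in nulls and 549 ± 46.7 in controls and was not called (adjusted p = 0.0533). Rxra was called lower in 6 alternatives, among them the block for title numbers (0.00944), array weights (0.006) and the fit without Null_61 (0.00534), whereas the mean of its probe sets gave a log2 change of -0.06 (0.857). Ppard, Pparg, Ppargc1a, Ppargc1b and Nr1h3 were not called either, by their brightest probe sets, although Nr1h3 was without Null_61 (0.0352).

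Promoter windows of RefSeq (GRCm38.p6, 250 bases before to 50 after the start) were matched by symbol for 35 of the 42 members and searched on both strands. The motif CAAAGTCCA, an element bound by HNF4 alpha, occurred in 0.555% of 27025 genes and in 2 members, Abcd3 and Pipox. Both were called lower, as were 19 of the 35 members with a window. These matches begin after the start, at base 14 in Abcd3 and base 16 in Pipox. Abcd3 has 2 windows with different starts, and its other window holds no match. CAAAGGTCA, the end of a direct repeat that HNF4 alpha and PPAR alpha can both bind, occurred in 0.544% of genes and in 1 member, Acot4. The full repeat of 2 AGGNCA half-sites separated by 1 base, which can contain CAAAGGTCA, was found in 0 members and 0.451% of genes. The looser CAAAGNNCA, which contains the first 2 motifs, was found in 4 of 35 members and 7.27% of genes, and its match outside those 3 genes was in Pex11g. The matches are shown with 10 bases on each side in the direction of the gene, the motif or its reverse complement in capitals, at chr3:121815271-121815299 (minus strand), chr11:77893839-77893867 (minus) and chr12:84038356-84038384 (plus).
Abcd3: cccgggaagcCAAAGTCCAcggtgggctc
Pipox: ctagtttagcTGGACTTTGcctccctcct
Acot4: ccccgaagcaTGACCTTTGgccggtctgt
These are matches of letters, with no binding measured, and windows without a match say only that the letters are not within those bases.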

How the data were processed

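Per the labels' protocols, total RNA was prepared with a spin-column kit, labelled with biotin and hybridised to Affymetrix arrays by the standard procedure. The deposited values are linear intensities, with 1 value for a probe set on an array and between 0.908% and 1.34% of them below 0. The sources used here do not say how the authors summarised, background-corrected and scaled them. Array medians were 91.8 to 99.5, and their log2 spread of 0.0877 was under the tolerance of 0.2, so the scaling was kept. No 2 arrays were identical. The labels do not tell litters apart, so the p-values rest on the spread among 6 arrays, which may be partly technical, and that number limits the precision.

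Of 45101 probe sets, 64 controls were left out. Negative values became 0, and log2 was taken after adding 32. Groups were compared in R 4.3.3 with limma 3.58.1 (lmFit, eBayes with intensity trend, no covariate, two-sided, Benjamini-Hochberg over 45037 probe sets, threshold 0.05), after the script was tested on simulated data. Among simulated probe sets above the median control level, 62% of log2 changes of -1 and 91% of those of -2 were called. There were 9 false calls. A missing call is therefore weak evidence of no change where the change is of size 1 or less. A gene is its singly named probe set with the highest mean log2 value. No probe set was filtered for low signal, so all 42 members were tested. No exact permutation test is given, because with 3 arrays a group its smallest two-sided p is 0.1. Promoter windows and names come from RefSeq tables of GRCm38.p6, and the deposited table names no build. The alternatives were other normalizations, pseudocounts of 1 and 100, a signal filter, no trend, array weights, probe-set means, a block for the title number run, the 4 other arrays alone, embryo sex read from Xist and Y-linked probe sets, and each array left out. Control_1192, Control_1193 and Null_61 read as male, and Control_8, Null_1191 and Null_1195 as female. Sex was therefore unbalanced between the groups. The rule for named genes took all members, the regulators, and from the other peroxisome genes the called ones of smallest adjusted p (up to 8 lower and 4 higher) and those whose probe sets disagree. Fis1, Mff and Dnm1l were added after their values were seen. Of 56 such genes 10 were not analysed here. Members, lists and motifs were chosen with earlier results of these data known.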

Additional observations from a re-analysis of the deposited data

How the results depend on the processing

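Of the 23 members called lower, 17 stayed called under every alternative that was run for them and 0 changed direction. There were 17 alternatives, except that the filter on signal left out Acot4 and Nudt12, which had 16. The 6 that lost the call in some were Cat, Idh1, Pex7, Pex13, Pex16 and Pex19. Of the 19 others, 8 gained a call somewhere. The count of lower members was 20 to 27, that of enzymes and transporters 16 to 19 and that of other peroxisome genes 18 to 25. With 1 array left out they were 17 to 25, 16 to 18 and 17 to 21, with fewer arrays in each fit. Lower peroxins, 5 in all, numbered 3 with quantile normalization, 8 with the title number run as a block, 3 with embryo sex as a term, and 1 to 7 with 1 array left out.

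No member rose, but Dao did with array weights and with the mean of probe sets, making the count 1 for all members and for enzymes in each. The 1 other peroxisome gene that rose, Far1, made the count 0 with embryo sex as a term, 0 with probe-set means and 0 to 1 with an array left out. Medians kept their sign. With quantile normalization they were -0.52 (members), -0.39 (peroxins) and -0.37 (other peroxisome genes). A pseudocount of 1 gave -0.69, -0.55 and, for enzymes, -1.21, and one of 100 gave -0.50, -0.39, -0.74 and, for other peroxisome genes, -0.38. Probe sets above the median level gave -0.50 for peroxins and -1.31 for enzymes, and probe-set means gave -0.41, -0.85 and, for other peroxisome genes, -0.37. The 4 arrays without Control_8 and Null_61 gave -0.39 for other peroxisome genes. With 1 array left out, medians were -0.63 to -0.59 (members), -0.48 to -0.42 (peroxins), -1.04 to -0.90 (enzymes) and -0.54 to -0.44 (other peroxisome genes). The causes were not tested. Signals near background limit what Acox3, Dao, Pex10, Xdh and Ddo can show. The same holds for the called falls of Acot4 and Nudt12. No paired analysis was possible because the groups share no replicate number.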
